A study of Mus musculus with 36 samples.

Results

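The scavenger receptors and lectins described here are 10 genes, chosen by symbol from the 53465 genes of the deposited tables: the scavenger receptors Msr1, Cd36, Marco, Scarb1 and Scarb2, the sialic-acid lectin Siglec1, and the C-type lectins Mrc1, Clec4e, Clec4d and Clec7a. They were measured by RNA sequencing in RAW 264.7, a macrophage-like mouse cell line labelled as wild type, in 36 libraries that form 12 groups of 3. The groups were LPS (lipopolysaccharide, a bacterial outer membrane component sensed by Toll-like receptor signalling) at 10 µg/mL together with melatonin at 0.1, 1, 10, 100 or 1000 µM, LPS alone at 10 µg/mL, melatonin alone at the same 5 doses, and solvent. The dose of 1000 µM is written as 1 mM. Melatonin preceded LPS by 30 min where both were given, and treatment lasted 12 h. All groups are 1 cell line. Nothing in the labels ties the 3 libraries of a group to separate cultures, and the spread behind each p-value may therefore be technical only. In bulk RNA, fewer cells that express a gene and less RNA per cell cannot be told apart.

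Scavenger receptors are surface proteins of macrophages that bind modified lipoproteins, bacterial products and dying cells. Msr1 (scavenger receptor A) and Cd36 take up oxidised low-density lipoprotein, Scarb1 exchanges cholesterol with high-density lipoprotein, and Scarb2 is a lysosomal membrane protein that carries glucocerebrosidase. Siglec1 (sialoadhesin, CD169) binds sialic acids on other cells and on pathogens. Clec4e (Mincle) and Clec4d (MCL) bind mycobacterial glycolipids and signal through the adaptor Fcer1g, and Clec7a (dectin-1) binds fungal beta-glucans.

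Library totals were 4203313 to 7590271 counts (median 6649254), and CPM below means counts per 1000000 counted reads. A count of 0 in 1 library allows for a level of 3 counts, or 0.395 to 0.714 CPM, by counting error alone. Macrophage identity was checked on 10 markers, of which 9 were matched to 1 gene. All 9 averaged over 1 CPM, with Csf1r at 3136 CPM and Lyz2 at 6336 CPM over all libraries, while no T cell, B cell, fibroblast, epithelial or endothelial marker averaged over 1 CPM. Of 5 dendritic cell markers, Zbtb46 and Xcr1 averaged over 1 CPM, and the 5 summed to 0.924 to 14.3 CPM. The summed level of 7 osteoclast markers, 5 of them averaging over 1 CPM, lay between 12.0 and 105 CPM. Replicate 3 of 1 mM melatonin and replicate 1 of 1 µM melatonin stood apart from their groups. A score was taken over 271 genes that separated LPS with 1 mM from LPS with 0.1 µM melatonin (adjusted p under 0.05, at least 2-fold). These genes were not called for LPS against solvent, though the score was -0.422, -0.511 and -0.668 with LPS alone. Set to average 0 in solvent, the score was 1.04 and 0.854 in replicates 1 and 2 of 1 mM melatonin but 0.245 in replicate 3. At 1 µM melatonin it was 1.21 in replicate 1, against -0.17 and -0.06 in the other replicates. The summed macrophage markers were 5552, 5424 and 12012 CPM in replicates 1, 2 and 3 of 1 mM melatonin, and 5017, 13328 and 13259 CPM in those of 1 µM. In both measures each of the 2 libraries lay nearer to the other replicates of the other dose than to those of its own. Replicate 3 of 1 mM also lay near 10 and 100 µM melatonin. Scores there were 0.222, 0.330 and 0.467 at 10 µM and 0.317 to 0.361 at 100 µM. Marker sums were 11412 to 12700 CPM at 10 µM and 11333 to 11652 CPM at 100 µM. Whether the 2 libraries were exchanged with one another was not tested. If they were, each value given for 1 mM or 1 µM melatonin alone mixes both doses. Labels were kept as given, and the tests that involve 1 mM melatonin alone are given with and without both libraries where a member is called in either. Without both, 1 mM melatonin alone keeps replicates 1 and 2, and 1 µM keeps replicates 2 and 3. Replicate 3 of LPS with 1 mM melatonin also differed more from its group (chi-square per degree of freedom of 37.7 and 37.1, against 14.4 between the other replicates). This library had the lowest total of the series, 4203313 counts, and the highest TMM scaling factor, 1.19.

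LPS alone was compared with solvent to describe how the 10 genes answered the inflammatory stimulus. Msr1, Siglec1, Clec4e, Clec4d and Cd36 rose, Scarb1 fell, Scarb2, Clec7a and Mrc1 did not pass the test, and Marco had no count in any library. Levels are mean ± SD of CPM (n = 3). Changes are log2 fold changes ± SE from edgeR's quasi-likelihood test on 16988 genes, with Benjamini-Hochberg adjustment and a threshold of 0.05. The SE was derived as the size of the change divided by the square root of the test's F statistic. Among the 9 members tested, 5 rose, where 8.4% of all tested genes did, and 1 fell, where 8.09% did. The median change of the 9 members was 1.75, against -0.02 over all tested genes. Marker sums moved as well. The osteoclast markers summed to 48.5 to 71.4 CPM with LPS and 20.2 to 34.5 CPM in solvent. Of 5 tested, 2 were higher (Dcstamp and Mmp9) and 1 lower. The macrophage markers summed to 13875 to 13942 CPM with LPS and 13033 to 13657 CPM in solvent. Of 9 tested, 4 were higher (Adgre1, Cd14, Fcer1g and Ptprc) and 2 lower (Csf1r and Fcgr3). The part of the markers in the results was not tested.

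Msr1 (ENSMUSG00000025044, mm10 chr8:39581685-39642673, minus strand) had 474, 469 and 452 CPM in the LPS libraries, against 37.3, 25.4 and 32.2 CPM in the solvent libraries. The groups did not overlap, and the change was 3.88 ± 0.49 (14.7-fold, adjusted p = 4.25e-08). Siglec1 (ENSMUSG00000027322, chr2:131069220-131086765, minus strand) had 47.6, 49.3 and 36.7 CPM with LPS, against 0.848, 1.10 and 5.83 CPM in solvent. It was thus close to the detection limit without LPS, and it rose by 4.08 ± 0.79 (16.9-fold, adjusted p = 0.000127). The size rests in part on solvent replicate 3, without which the change was 5.48 (adjusted p = 4.66e-05). Cd36 (ENSMUSG00000002944, chr5:17781690-17888801, minus strand) had 427, 494 and 432 CPM with LPS, against 148, 123 and 132 CPM in solvent, a rise of 1.75 ± 0.22 (3.35-fold, adjusted p = 3.49e-08). Cd36 was the member with the smallest fold change among the 5 that rose, yet its LPS and solvent libraries lay far apart.

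Clec4e (ENSMUSG00000030142, chr6:123281789-123289870, minus strand) had 996, 1013 and 926 CPM with LPS, against 73.5, 74.2 and 67.6 CPM in solvent. The change was 3.77 ± 0.18 (13.6-fold, adjusted p = 6.51e-20), with the smallest SE among the members. Clec4d (ENSMUSG00000030144, chr6:123262111-123275265, plus strand) had 241, 278 and 271 CPM with LPS, against 40.2, 47.5 and 28.3 CPM in solvent, a rise of 2.77 ± 0.29 (6.81-fold, adjusted p = 4.92e-10). Both lectin genes thus separated LPS from solvent in every library.

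Clec4d and Clec4e are neighbours on chromosome 6 and lie on opposite strands. The 6523 bases between them separate the ends of the genes, and each start lies on the outer side. With 200 kb on either side, the stretch holds 8 protein-coding genes of the GENCODE M21 annotation that are among the counted genes, the pair included. Of these, 4 were under 1 CPM in LPS with 1 mM melatonin, LPS and solvent alike. Clec4a2 had 0.444 ± 0.388 CPM in LPS with 1 mM melatonin, 2.86 ± 2.99 CPM with LPS and 4.28 ± 2.36 CPM in solvent, and Clec4n had 0 counts, 1.86 ± 1.72 CPM and 0.399 ± 0.691 CPM in those groups. The proximal promoters of this pair are shown because both transcripts rose with LPS and fell in LPS with 1 mM melatonin against LPS. Msr1, Siglec1 and Cd36 did so too. The windows run from 250 bases before to 50 bases after each start (RefSeq, GRCm38.p6). Capitals mark matches to TTGCNNAA, a C/EBP motif, and GAGGAA, a PU.1 motif, searched on both strands. The Clec4e window is chr6:123289822-123290121 on the minus strand and the Clec4d window chr6:123261857-123262156 on the plus strand.
Clec4e: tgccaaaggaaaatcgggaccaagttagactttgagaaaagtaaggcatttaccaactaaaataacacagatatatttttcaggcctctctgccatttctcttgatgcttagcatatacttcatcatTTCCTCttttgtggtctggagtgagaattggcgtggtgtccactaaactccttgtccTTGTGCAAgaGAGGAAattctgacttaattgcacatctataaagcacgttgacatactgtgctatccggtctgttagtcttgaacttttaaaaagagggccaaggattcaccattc
Clec4d: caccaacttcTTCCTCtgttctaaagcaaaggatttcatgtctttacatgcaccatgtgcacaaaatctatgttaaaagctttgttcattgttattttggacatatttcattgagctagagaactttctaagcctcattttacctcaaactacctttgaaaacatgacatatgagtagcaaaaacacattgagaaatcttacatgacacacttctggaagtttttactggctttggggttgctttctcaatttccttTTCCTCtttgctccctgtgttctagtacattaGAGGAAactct

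The Clec4e window holds a C/EBP match at bases 185 to 192 and PU.1 matches at 128 to 133 and 195 to 200, counted from the window's 5′ end. The Clec4d window has no C/EBP match and holds PU.1 matches at bases 11 to 16, 258 to 263 and 290 to 295, and an ISRE match (GAAANNGAA, interferon-stimulated response element) at 252 to 260 that overlaps the second. Neither window holds the NF-kB letters GGNNTTTCC or the AP-1 letters TGANTCA. Of 32851 RefSeq promoters of the same length, 10.8% hold the C/EBP letters, 28.3% the PU.1 letters, 8.56% the ISRE letters, 5.82% the NF-kB letters and 7.81% the AP-1 letters. Promoters were found for 7 of the 10 members, of which 5 hold a PU.1 match: Clec4e, Clec4d, Clec7a, Marco and Mrc1. The windows of Cd36 and Scarb2 hold none of these motifs. For Msr1, Siglec1 and Scarb1 no promoter was found. A match describes letters and is no evidence of binding.

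Scarb1 (ENSMUSG00000037936, chr5:125277087-125341094, minus strand) went the other way, with 37.9, 49.4 and 43.4 CPM in the LPS libraries, against 119.9, 84.1 and 95.1 CPM in solvent. All 3 LPS libraries were below all 3 solvent libraries, and the fall was 1.19 ± 0.21 on the log2 scale (adjusted p = 2.98e-05). Scarb2 (ENSMUSG00000029426, chr5:92441314-92506833, minus strand) had 25.4 ± 7.63 CPM with LPS and 39.6 ± 13.9 CPM in solvent, and Clec7a (ENSMUSG00000079293, chr6:129461591-129472779, minus strand, annotated as a polymorphic pseudogene) had 30.2 ± 6.88 CPM with LPS and 45.2 ± 9.06 CPM in solvent. The libraries of both genes overlapped between the groups, with changes of -0.64 ± 0.37 (adjusted p = 0.268) and -0.58 ± 0.30 (adjusted p = 0.195). Their 95% intervals, approximate as they take the SE as normal, ran from -1.37 to 0.09 for Scarb2 and from -1.16 to 0.00 for Clec7a. For Clec7a the upper end was just under 0 (-0.00066), while the unadjusted p of the edgeR test was 0.0564.

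Marco (ENSMUSG00000026390, chr1:120474538-120505024, minus strand), a scavenger receptor with a collagenous domain, had 0 counts among 235005617 counts over all 36 libraries, which allows up to 0.0128 CPM. Mrc1 (ENSMUSG00000026712, chr2:14229392-14332057, plus strand), the mannose receptor of alternatively activated macrophages, had 110 counts over the 36 libraries, and its group means lay between 0 and 1.34 CPM. At this depth no difference between groups was detectable for either gene.

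Compared per length, in the authors' FPKM, Clec4e was the most abundant member with LPS at 192 ± 9.21 FPKM, followed by Clec4d at 160.3 ± 12.0, Cd36 at 122 ± 10.2 and Msr1 at 71.3 ± 1.85 FPKM. The libraries of each of these neighbours in the order did not overlap, whereas in solvent the order was led by Cd36 at 36.9 ± 3.57 FPKM, Clec4d at 23.8 ± 5.93 and Clec7a at 16.9 ± 3.32 FPKM. Clec4e stood at 14.2 ± 0.705 FPKM and Msr1 at 4.91 ± 0.947 FPKM in solvent. Siglec1 was the scarcest of the LPS-raised genes in both groups, at 6.07 ± 0.94 FPKM with LPS and 0.358 ± 0.388 FPKM in solvent.

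**Figure D1:**
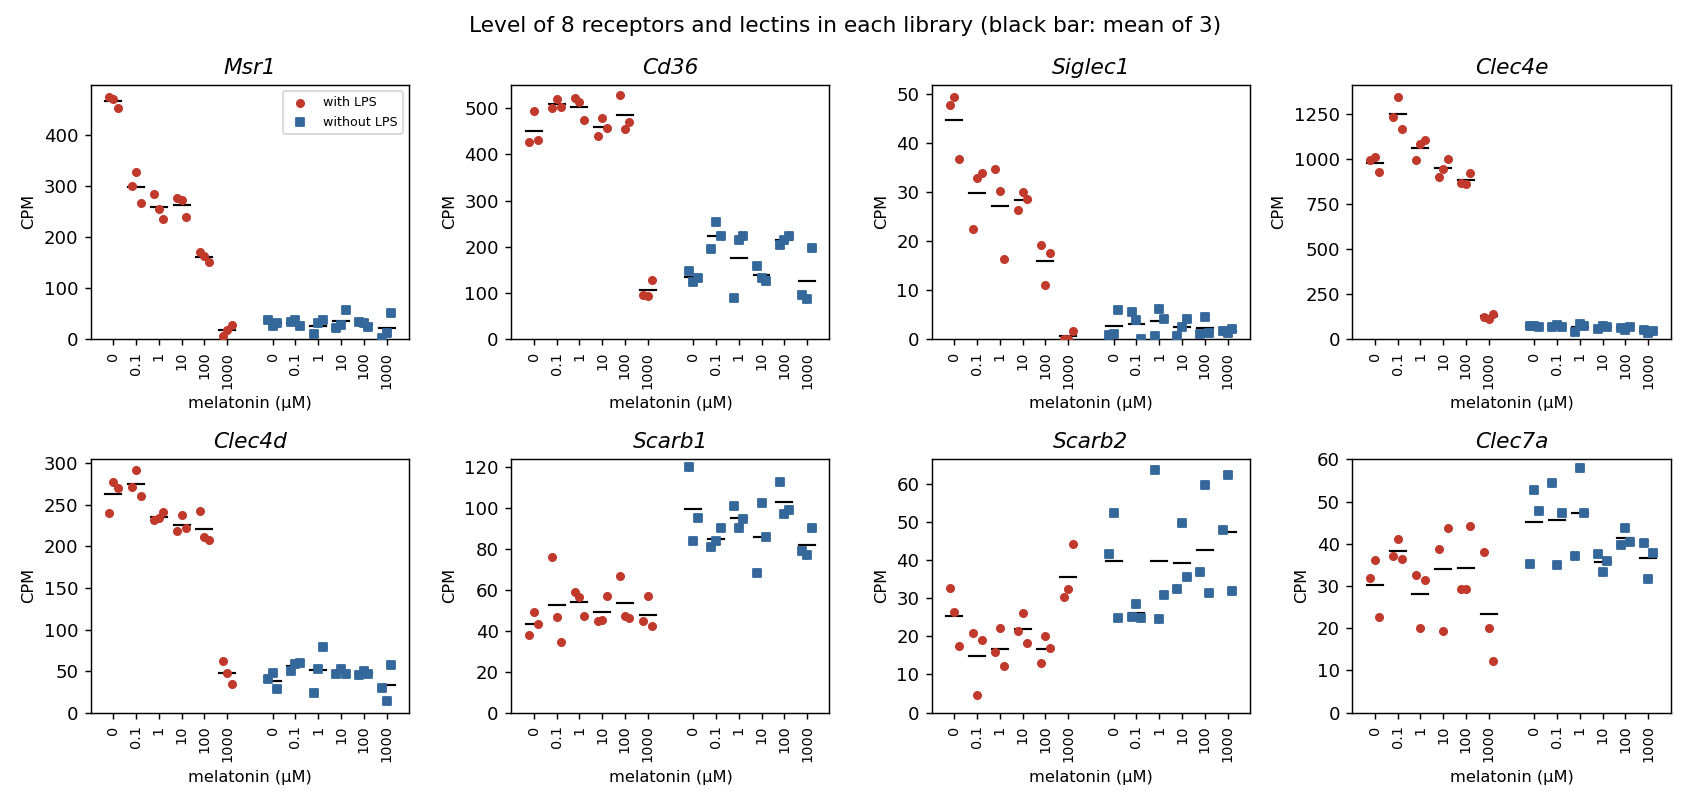
Level of 8 of the 10 genes in each library, in CPM on a linear axis from 0, against melatonin dose in µM, with LPS (red circles, left) and without LPS (blue squares, right); black bars are means of 3 libraries. Msr1 and Siglec1 with LPS are lower at each dose than with LPS alone. Cd36, Clec4e and Clec4d average 83.8% to 128% of the LPS level up to 100 µM and drop at 1 mM.

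LPS with 1 mM melatonin was compared with LPS alone to ask how melatonin given beforehand altered the LPS state. The 5 genes that LPS raised all fell, and the other members tested did not pass. Those are 5 of 9 members, where 4.71% of all tested genes fell. The median change was -2.44 for the members and 0.02 over all tested genes. The summed macrophage markers were 3939.8 to 4969 CPM in LPS with 1 mM melatonin and 13875 to 13942 CPM with LPS, with 5 of 9 lower (Adgre1, Cd14, Fcer1g, Lyz2 and Ptprc) and Fcgr3 higher. The part of this in the members' change was not tested.

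Msr1 had 5.66, 16.5 and 27.7 CPM in LPS with 1 mM melatonin, against 474, 469 and 452 CPM with LPS alone. The highest of the first 3 was thus a small part of the lowest of the LPS libraries, and Msr1 fell by 4.83 ± 0.52 (28.4-fold, adjusted p = 4.73e-09). Siglec1 had 0, 0 and 8 counts in LPS with 1 mM melatonin (0, 0 and 1.59 CPM), against 36.7 to 49.3 CPM with LPS, and fell by 6.54 ± 0.96 (adjusted p = 4.32e-06). All 8 counts came from replicate 3. In replicates 1 and 2 alone Siglec1 was at least 200.2-fold lower than with LPS, with 3 counts over both libraries as the floor. Without replicate 1 or 2 the fitted change was -5.91 or -5.89, and without replicate 3 it was -11.19, a value fitted to libraries at 0 and no bound.

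Clec4e had 122, 113 and 139 CPM in LPS with 1 mM melatonin, against 996, 1013 and 926 CPM with LPS, and fell by 2.97 ± 0.18 (7.83-fold, adjusted p = 3.77e-16). Clec4d had 62.0, 48.1 and 34.5 CPM, against 241, 278 and 271 CPM with LPS, and fell by 2.44 ± 0.29 (5.44-fold, adjusted p = 4.05e-08). Cd36 had 96.3, 93.0 and 127 CPM, against 427, 494 and 432 CPM with LPS, and fell by 2.10 ± 0.22 (4.28-fold, adjusted p = 3.05e-09). In each of the 5 genes every library with 1 mM melatonin lay below every LPS library. The share of all tested genes that separated in this way was not counted.

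Scarb1, which LPS lowered, had 48.0 ± 7.85 CPM in LPS with 1 mM melatonin and 43.6 ± 5.78 CPM with LPS, a change of 0.14 ± 0.21 (adjusted p = 0.802) with a 95% interval of -0.27 to 0.55. Scarb2 had 35.6 ± 7.38 CPM and 25.4 ± 7.63 CPM in those groups (0.48 ± 0.37, adjusted p = 0.528), and Clec7a had 23.4 ± 13.2 CPM and 30.2 ± 6.88 CPM (-0.36 ± 0.30, adjusted p = 0.566).

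**Figure D2:**
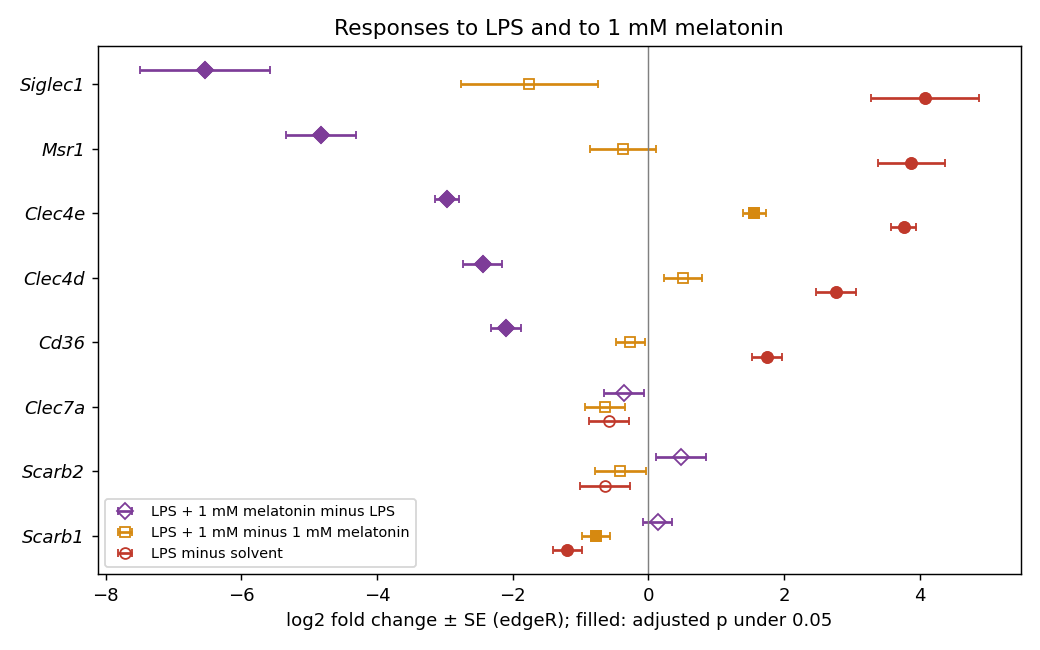
log2 fold change ± SE of 8 genes in LPS with 1 mM melatonin minus LPS (purple), LPS with 1 mM melatonin minus 1 mM melatonin (orange) and LPS minus solvent (red); filled symbols passed the adjusted threshold of 0.05. The 5 genes raised by LPS lie at -6.54 to -2.10 in the first comparison, and Scarb1, Scarb2 and Clec7a lie near 0.

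Whether LPS acted differently with 1 mM melatonin present was tested directly, as the LPS response with melatonin minus the LPS response without it. The same 5 members were lower, where 1.06% of tested genes were. The difference was -5.83 ± 1.25 for Siglec1 (adjusted p = 0.00561), -4.25 ± 0.68 for Msr1 (adjusted p = 0.000105), -2.25 ± 0.40 for Clec4d (adjusted p = 0.000492), -2.20 ± 0.24 for Clec4e (adjusted p = 6.15e-08) and -2.01 ± 0.31 for Cd36 (adjusted p = 4.57e-05). Without the libraries that stood apart at 1 mM and 1 µM melatonin alone, it was -5.64 for Siglec1, -2.54 for Msr1, -1.63 for Clec4d, -2.13 for Clec4e and -1.55 for Cd36, and all 5 passed. The value of Siglec1 also moved with single libraries: it was -7.24 without solvent replicate 3, -5.20 or -5.18 without replicate 1 or 2 of LPS with 1 mM melatonin, and -10.48 without replicate 3 of that group, when the group is at 0 and the fit gives no bound.

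The LPS response that was left at 1 mM melatonin was read from LPS with 1 mM melatonin against 1 mM melatonin alone. Clec4e rose, as 1 of 9 members where 4.87% of tested genes rose, and Scarb1 fell, as 1 of 9 where 4.75% fell. Clec4e had 122, 113 and 139 CPM with LPS and 1 mM melatonin, against 49.0, 31.4 and 46.2 CPM with 1 mM melatonin, a change of 1.56 ± 0.17 (2.96-fold, adjusted p = 6.12e-09), and of 1.63 without the 2 libraries that stood apart. Scarb1 fell to 48.0 ± 7.85 CPM, against 82.1 ± 7.15 CPM with 1 mM melatonin (-0.77 ± 0.21, adjusted p = 0.0109), a change of -0.70 without the 2 libraries (adjusted p = 0.0462). Its call was lost without replicate 3 of LPS with 1 mM melatonin, without replicate 3 of 1 mM melatonin, and in a fit of only those 6 libraries.

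Msr1 had 16.6 ± 11.0 CPM in LPS with 1 mM melatonin and 21.3 ± 26.1 CPM with 1 mM melatonin (-0.38 ± 0.49, adjusted p = 0.752), and Clec4d had 48.2 ± 13.8 CPM and 33.9 ± 21.97 CPM (0.51 ± 0.28, adjusted p = 0.296). The single 1 mM melatonin libraries were 2.07, 10.9 and 50.9 CPM for Msr1 and 29.6, 14.4 and 57.7 CPM for Clec4d, with replicate 3 the highest in both. Without the 2 libraries that stood apart, Msr1 was higher with LPS by 1.34 (adjusted p = 0.0269) and Clec4d by 1.14 (adjusted p = 0.000261).

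**Figure D3:**
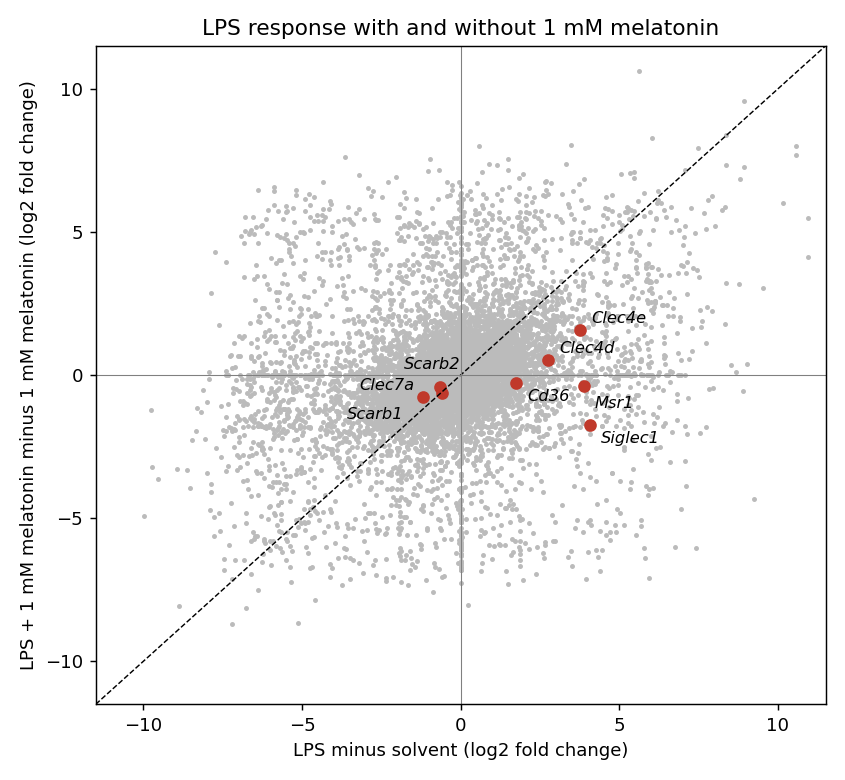
LPS response with 1 mM melatonin (vertical, log2 fold change against 1 mM melatonin) against the LPS response without melatonin (horizontal, log2 fold change against solvent) for 16988 tested genes (grey) and 8 members (red); the dashed line marks equal responses. The 5 LPS-raised members lie below the line, Clec4e at 3.77 and 1.56, and Scarb1, Scarb2 and Clec7a lie close to it.

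Over the dose series with LPS, Msr1 and Siglec1 were below LPS alone at every dose. Clec4e, Clec4d and Cd36 averaged 83.8% to 128% of LPS alone up to 100 µM. The difference between these sets of genes was not tested. Msr1 averaged 465 ± 11.6 CPM with no melatonin, then 297 ± 30.6 at 0.1 µM, 258 ± 25.3 at 1 µM, 262 ± 21.01 at 10 µM, 161 ± 10.0 at 100 µM and 16.6 ± 11.0 CPM at 1 mM. In percent of LPS alone this was 64.0, 55.5, 56.4, 34.7 and 3.58, and at each dose all 3 libraries were below all 3 LPS libraries. The libraries at 0.1, 1 and 10 µM overlapped one another, and those at 100 µM and 1 mM did not overlap their neighbours.

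Siglec1 followed a like course, at 44.5 ± 6.85 CPM with no melatonin, 29.7 ± 6.31 at 0.1 µM, 27.0 ± 9.56 at 1 µM, 28.3 ± 1.87 at 10 µM, 15.9 ± 4.28 at 100 µM and 0.531 ± 0.92 CPM at 1 mM. Its 3 libraries at every dose were also below the LPS libraries. Clec4e averaged 978 ± 46.1 CPM with no melatonin, 1250.1 ± 90.7 at 0.1 µM, 1061 ± 59.4 at 1 µM, 950.1 ± 48.7 at 10 µM, 883 ± 32.7 at 100 µM and 125 ± 13.3 CPM at 1 mM. Clec4d kept 83.8% to 104% of its LPS level from 0.1 to 100 µM and 18.3% at 1 mM, and Cd36 kept 102% to 113% and 23.4%. The Clec4e libraries were all above the LPS libraries at 0.1 µM and all below them at 100 µM. Those of Cd36 were all above at 0.1 µM, and those of Clec4d all below at 10 µM. How many of all tested genes separated in this way was not counted.

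**Figure D4:**
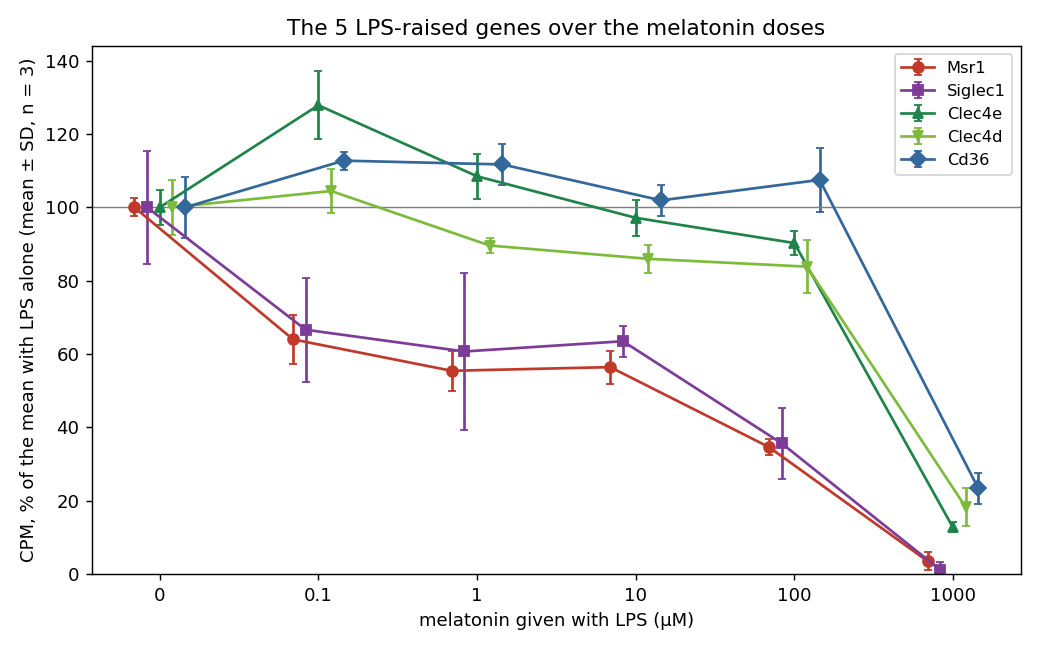
CPM of the 5 LPS-raised genes in percent of their mean with LPS alone (mean ± SD, n = 3), against the melatonin dose given with LPS, 0 to 1000 µM, at equal spacing. Msr1 and Siglec1 lie between 34.7% and 66.6% from 0.1 to 100 µM, Clec4e, Clec4d and Cd36 between 83.8% and 128%, and all 5 are at or under 23.4% at 1000 µM.

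No member passed the test at the 4 lower doses with LPS, where 1.36%, 0.612%, 0.371% and 1.18% of tested genes did at 0.1, 1, 10 and 100 µM. At an unadjusted p under 0.05 there were 2 members at 0.1 µM (Scarb2 and Clec4e), 0 at 1 and 10 µM and 2 at 100 µM (Msr1 and Siglec1), and DESeq2 called 0. For Msr1 the changes against LPS were -0.64 ± 0.43, -0.85 ± 0.43, -0.83 ± 0.43 and -1.53 ± 0.44 (adjusted p = 0.529, 0.436, 0.529 and 0.0744). The SE of these changes draws on the spread of Msr1 in all 12 groups, 1 mM melatonin alone included. When only the LPS libraries and those of the dose were fitted, Msr1 passed at all 4 doses with nearly the same changes (adjusted p = 0.000987, 6.37e-05, 1.96e-05 and 9.35e-09), and without the 2 libraries that stood apart it passed at 100 µM (adjusted p = 0.000636). Siglec1 changed by -0.59, -0.72, -0.65 and -1.49 at those doses and passed only at 100 µM in the fit of the compared libraries (adjusted p = 0.00344), as did Clec4e, which was higher by 0.36, at 0.1 µM (adjusted p = 0.0121).

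The mean of the 4 lower doses with LPS was also set against LPS. Of the members 0 passed, where 2.81% of tested genes did, with 2 at an unadjusted p under 0.05 (Msr1 and Mrc1) and 0 by DESeq2. Msr1 changed by -0.96 ± 0.32 (adjusted p = 0.0935), and it passed without the 2 libraries that stood apart (adjusted p = 0.00299). The slope per 10-fold dose from 0.1 to 100 µM had 0 members past the threshold, where 0.0177% of tested genes passed, with 1 at an unadjusted p under 0.05 (Clec4e, -0.17 ± 0.05) and 0 by DESeq2. From 100 µM to 1 mM the step itself passed for the 5 LPS-raised genes, where 3.77% of tested genes fell. LPS with 1 mM minus LPS with 100 µM melatonin was -5.05 ± 0.94 for Siglec1, -3.30 ± 0.49 for Msr1, -2.82 ± 0.18 for Clec4e, -2.20 ± 0.22 for Cd36 and -2.19 ± 0.28 for Clec4d. For Siglec1 it was -4.43 or -4.40 without replicate 1 or 2 of LPS with 1 mM melatonin, and -9.71, again no bound, without replicate 3. Scarb2 had 35.6 ± 7.38 CPM at 1 mM and 16.6 ± 3.55 CPM at 100 µM with LPS, with no overlap of libraries, and did not pass (1.10 ± 0.38, adjusted p = 0.0959).

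Melatonin alone moved few members. At 0.1, 1, 10 and 100 µM 0 members passed, where 0.341%, 0.147%, 0.0824% and 0.0824% of tested genes did. At an unadjusted p under 0.05 there was 1 member at 0.1 µM and 1 at 100 µM, Cd36 both times, and DESeq2 called Cd36 at 0.1 µM. Clec4e was the member that fell at 1 mM, where 0.318% of tested genes fell. It had 49.0, 31.4 and 46.2 CPM with 1 mM melatonin, against 73.5, 74.2 and 67.6 CPM in solvent (-0.77 ± 0.17, adjusted p = 0.0262). This call was lost without any 1 of the 3 solvent libraries, without replicate 2 of 1 mM melatonin, and in a fit of only the compared libraries. Over the mean of the 5 doses 0 members passed, where 0.218% of tested genes did, with 2 at an unadjusted p under 0.05 (Cd36 and Clec4e) and 0 by DESeq2.

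Cd36 had 148, 123 and 132 CPM in solvent and, with melatonin alone, 195, 253 and 223 CPM at 0.1 µM, 87.8, 214 and 223 CPM at 1 µM, 158, 131 and 125 CPM at 10 µM, 203, 214 and 224 CPM at 100 µM and 96.0, 87.7 and 196 CPM at 1 mM. All libraries at 0.1 and 100 µM were above all solvent libraries, with changes of 0.73 ± 0.22 (adjusted p = 0.142) and 0.67 ± 0.21 (adjusted p = 0.541). Replicate 1 at 1 µM and replicate 3 at 1 mM lay apart from their groups and were the same libraries that stood apart in the score. With all libraries the change was 0.38 ± 0.21 at 1 µM (adjusted p = 0.629). At 10 µM, between these doses, it was 0.04 ± 0.21 with all libraries and did not pass. Without both, Cd36 was higher than in solvent by 0.73 at 0.1 µM, 0.70 at 1 µM and 0.67 at 100 µM (adjusted p = 0.000328, 0.00363 and 0.00236).

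At 1 mM 4 of 9 members were lower than in solvent without the 2 libraries, where 1.98% of the 18347 genes tested in that fit were. Only replicates 1 and 2 of 1 mM were then left, a choice made with these data known. Replicate 3 was the highest of its group for Msr1 (50.9 CPM), Cd36 (196 CPM) and Clec4d (57.7 CPM), though not for Clec4e (46.2 CPM). Without the 2 libraries Cd36 changed by -0.55 (adjusted p = 0.0174), against -0.09 with all libraries (adjusted p = 0.960). Msr1 changed by -2.29 (adjusted p = 0.000161), against -0.57 with all libraries (adjusted p = 0.735). Clec4d changed by -0.81 (adjusted p = 0.0298), against -0.19 with all libraries (adjusted p = 0.902), and Clec4e by -0.84 (adjusted p = 0.000323). In that fit 363 genes were lower and 122 higher, against 54 lower and 17 higher with all libraries.

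Other receptors of these families, their signalling partners and their transcription regulators were read from 5 lists. Their counts stand beside 8.4% of all tested genes that rose and 8.09% that fell with LPS against solvent, and 2.84% that rose and 4.71% that fell with LPS and 1 mM melatonin against LPS. Of 19 other scavenger receptors 9 were tested, and with LPS 3 rose and 1 fell against solvent. Cd14, the LPS co-receptor, had 2311 ± 108 CPM with LPS and 424 ± 6.10 CPM in solvent (2.44 ± 0.19), and Cxcl16, a membrane chemokine that also binds oxidised lipoprotein, had 288 ± 43.4 and 99.5 ± 20.1 CPM (1.53 ± 0.28). Stab1, a clearance receptor, had 3.54 ± 1.14 CPM with LPS and 0 counts in solvent, at least 22.3-fold higher with 3 counts over the group as the floor. With LPS and 1 mM melatonin 0 of the 9 rose and 3 fell against LPS: Cd14 (-1.81 ± 0.18), Cxcl16 (-1.80 ± 0.28) and Lrp1 (-1.27 ± 0.22).

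The other C-type lectins gave 0 calls among 15 tested for LPS against solvent, and 1 of 15, the inhibitory receptor Clec12a (-1.72 ± 0.29), fell with LPS and 1 mM melatonin against LPS. Of 5 other sialic-acid lectins tested, Siglece rose with LPS (1.70 ± 0.59) while Cd33 (-2.73 ± 0.17) and Siglech (-5.03 ± 0.56) fell. With LPS and 1 mM melatonin against LPS, Siglece fell (-2.59 ± 0.62) and Cd33 rose (0.59 ± 0.16). Siglece thus shared the direction of Siglec1 in both comparisons, and Cd33 had the opposite direction in both.

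Of 17 signalling genes behind the lectins 6 rose and 2 fell with LPS against solvent, and 0 rose and 4 fell with LPS and 1 mM melatonin against LPS. Fcer1g, the adaptor of Clec4e and Clec4d, had 589 ± 46.2 CPM in LPS with 1 mM melatonin, 1061 ± 45.2 CPM with LPS and 637 ± 23.1 CPM in solvent. It rose by 0.74 ± 0.12 with LPS and fell by 0.85 ± 0.12 with 1 mM melatonin. Malt1, a paracaspase that relays these signals to NF-kB, rose by 1.71 ± 0.16 and fell by 2.39 ± 0.17. The kinase Lyn rose by 0.86 ± 0.15 with LPS, and the transcription factor Nfatc1 fell by 1.11 ± 0.18 with 1 mM melatonin. Of 12 transcription regulators tested, 4 rose and 2 fell with LPS, and 0 rose and 3 fell with 1 mM melatonin against LPS. Nfkb1 rose by 2.08 ± 0.18 and Cebpb by 1.49 ± 0.23 with LPS, and both fell with 1 mM melatonin, by 0.97 ± 0.18 and 0.81 ± 0.22. Irf8 fell by 1.40 ± 0.24 in the second comparison. Over the tested genes of the 5 lists, in the order given, the median change with LPS against solvent was 0.10, -0.15, -1.88, 0.05 and 0.25, against -0.02 over all genes. With LPS and 1 mM melatonin against LPS it was -0.48, -0.66, 0.18, -0.44 and 0.14, against 0.02 over all genes, and these medians are unchanged with genes at 0 in a group set to their bound.

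In likeness over the 12 group means of log2 CPM, given as a description over groups that share libraries of 1 series, Clec4e and Clec4d had a Pearson r of 0.985, Msr1 and Clec4d 0.973, and Msr1 and Siglec1 0.968. Scarb1 ran against Clec4e (-0.86), and Scarb2 ran against Clec4d (-0.90) and Clec4e (-0.90). The most alike genes were sought among tested genes with at least 5 CPM in their highest group. Genes with Gm or Rik symbols and unnamed genes were left out. Msr1 was most like Tpm4 (0.990), Cybb (0.988) and Ms4a6d (0.987). Cd36 was most like Bcar3 (0.983), Lims1 (0.980) and Mthfs (0.978). Siglec1 was most like Adgre1 (0.979), the macrophage marker F4/80, Ly6e (0.977) and Irak3 (0.973). Clec4e was most like Cyb5r1 (0.996), Fyb (0.994) and Slc35b1 (0.993), and Clec4d like Etv1 (0.986), Ddx10 (0.986) and Tmem132a (0.985). Scarb1 was most like Kif24 (0.990), Arhgap18 (0.984) and Cdca2 (0.982), and Scarb2 like Huwe1 (0.969), Ago1 (0.965) and Bcas1 (0.964). Clec7a was most like Tubb5 (0.929), Cox8a (0.928) and Minos1 (0.926).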

How the data were processed

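Total RNA was extracted with Trizol and sequenced from Illumina TruSeq libraries, per the labels' protocols. Per the submitters' processing notes, the tools were cutadapt and featureCounts and the build was mm10. The aligner and strand setting are not given in the sources used here. Tests used the deposited table of raw counts (whole numbers per gene, no scaling, per the file headers). The authors' deposited FPKM table gave symbols, biotypes and levels compared between genes. Of 53465 gene identifiers, 99.8% matched GENCODE M21, the source of positions. No member shares exonic bases with another gene.

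The members and lists were chosen with earlier results of these data known, and so were the 2 libraries left out in an alternative. Named genes are all members, genes among the 3 of each list with the smallest adjusted p in LPS against solvent and in LPS with 1 mM melatonin against LPS, and the 3 genes most like each member with at least 5 CPM. Outside this rule, cell type markers and the neighbour Clec4a2 were named after their values were seen. CPM is counts over the library total scaled by TMM factors (0.914 to 1.19). filterByExpr kept 16988 genes, 9 of the 10 members among them, and edgeR 4.0.16 in R 4.3.3 (limma 3.58.1) fitted its quasi-likelihood model, which gives each group 1 mean, to all 36 libraries (common dispersion 0.266). p-values are two-sided and adjusted by Benjamini-Hochberg per contrast. Alternatives were RLE size factors, DESeq2 1.42.0 with its default filtering, no filter, a filter of at least 1 CPM in 3 libraries and 100 counts in all, fits of only the compared groups, a replicate block, leaving out each library, and leaving out the 2 libraries that stood apart. The procedure was tested on simulated counts.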

Additional observations from a re-analysis of the deposited data

Results flagged for a closer look

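The LPS response of 5 genes differed between cells given 1 mM melatonin and cells given none, by the test of that difference in the edgeR model. The LPS response with 1 mM melatonin minus that without was -5.83 for Siglec1, -4.25 for Msr1, -2.25 for Clec4d, -2.20 for Clec4e and -2.01 for Cd36 on the log2 scale. Without the 2 libraries of melatonin alone that stood apart it was -5.64 for Siglec1, -2.54 for Msr1, -1.63 for Clec4d, -2.13 for Clec4e and -1.55 for Cd36. With 1 library left out in turn the value of Siglec1 lay between -10.48 and -5.18, the lower end fitted to a group at 0.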

How the results depend on the processing

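Each of 24 member calls was refitted under 13 or 19 alternatives, which overlap in their libraries and gave 342 pairs of call and alternative. Of these pairs 334 held, 8 were lost and 0 reversed. Clec4e at 1 mM melatonin was lost in 5 and Scarb1 in LPS with 1 mM against 1 mM melatonin in 3. Calls over the 5 doses of melatonin alone (1) were 2 with DESeq2, 3 with no filter, 7 without the 2 libraries that stood apart, 2 in fits of only the compared libraries, and 0 to 2 when 1 library was left out. Calls over the 4 lower doses with LPS (0) were 4 with no filter, 1 without the 2 libraries and 6 with only the compared libraries. For their mean (0) these were 1, 1 and 2, and for their slope (0) 1 with no filter and 2 with only the compared libraries. For LPS with 1 mM against 1 mM melatonin (2) they were 4 without the 2 libraries and 1 with only the compared libraries.

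Without 1 library in turn, Cd36 at 1 mM melatonin against solvent ranged over -0.55 to 0.12, Clec4d over -0.81 to 0.17, and Msr1 in LPS with 1 mM against 1 mM melatonin over -0.93 to 1.34, the last also its value without the 2 libraries (1.34). The causes were not tested. All-gene calls moved too. At 1 mM melatonin alone they were 485 without the 2 libraries, 157 with DESeq2 and 0 with only the compared libraries, against 71. Fits of only the compared libraries gave 558 calls for LPS with 1 mM melatonin against LPS (1282 with all libraries), 261 for 1 mM against 100 µM melatonin with LPS (838), 102 for the difference between the LPS responses (287, and 454 with DESeq2), 595 for LPS with 1 mM against 1 mM melatonin (1634), and 508, 415, 374 and 626 at the 4 lower doses with LPS (231, 104, 63 and 201). Same-numbered libraries of different groups did not deviate together (mean r -0.002, 9 of 36 libraries closest to their own number). A replicate block left 6 calls for LPS against solvent, 5 for LPS with 1 mM melatonin against LPS and 5 for the difference between the LPS responses. Depth limits Mrc1, Marco and Siglec1 without LPS.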
